A study of Mus musculus with 12 samples.

Results

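Sox2 and 7 other transcription factors of the pluripotency network (Pou5f1, Nanog, Klf2, Klf4, Klf5, Sall4 and Esrrb) were followed across 4 genotypes of mouse embryonic fibroblasts (MEFs), cultured cells grown out of mouse embryos. The 8 genes were taken by symbol from the 18193 genes that the arrays measured. They had 14 of the 45037 probe sets, groups of short probes against 1 transcript, and for each gene the probe set that was brightest on average across all 12 arrays stood for the gene. Sox2 was selected on its measured difference between TKO and WT cells, so its values in every comparison that uses TKO or WT arrays are given as a description, without a test. The other members were named with it as factors of the same network.

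Total RNA from untreated, exponentially growing MEFs was hybridised to 1 array per sample, with 3 arrays for each of 4 genotypes. TKO-Ras cells were TKO MEFs carrying mutated Ras (RasG12D). TKO cells were labelled as lacking Rb1, Rbl1 (p107) and Rbl2 (p130), the 3 genes of the retinoblastoma (Rb) family. Rb1KO cells were labelled as lacking Rb1 alone, and WT cells were wild type. By label, TKO-Ras and TKO cells share all 3 deletions. The TKO cells came from another laboratory. How Ras was introduced, which Ras gene was mutated, and whether each genotype is 1 clone or pooled embryos are not given in the sources used here. The labels call the 3 arrays of a genotype biological replicates and do not tell separate embryos, cultures and passages apart, so the p-values measure the spread between these arrays only.

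Levels are log2 values, so a difference of 1 unit is a factor of 2 in signal. A probe set at or below 5.13, the 95th percentile of 44 probe sets for olfactory receptor genes, was taken as being at background. Where all 3 arrays of a genotype were at background, only a lower bound for the fold difference is given, computed against that level. Each comparison was fitted with limma over all 45037 probe sets, and a difference was called at an adjusted p under 0.05. A lower value can come from fewer cells of a type or from less RNA per cell, which cannot be told apart in bulk RNA.

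Rb1 was between 6.97 and 7.74 on the 9 arrays of the mutant genotypes, each of them lower than the WT mean of 8.50 ± 0.19 (SD, n = 3 arrays per genotype throughout). Whether the probe sets of the deleted genes lie inside the deleted parts is not given in the sources used here. Rbl1 was at background on all TKO-Ras and TKO arrays and between 8.18 and 9.0 on the Rb1KO and WT arrays. Rbl2 was at 5.14, 5.35 and 4.60 on the TKO-Ras arrays, 2 of them above background, and at 5.37, 5.27 and 5.71 on the TKO arrays, all above background. It was lower than in WT cells in both genotypes (-2.69, adjusted p = 5.86e-06, in TKO-Ras and -2.27, adjusted p = 3.56e-05, in TKO cells). It was at 4.47, 3.80 and 4.27 on the arrays labelled Rb1KO, against 7.54, 7.72 and 7.90 in WT cells. Rbl2 was thus at background in cells labelled as lacking Rb1 alone, at least 6.01-fold lower than in WT cells (adjusted p = 1.64e-06), which goes against that label, and it was higher in TKO than in Rb1KO cells (1.27, adjusted p = 0.00411). So every Rb1KO value below is of the arrays labelled Rb1KO. WT replicate 3 correlated least with its own group (mean r = 0.97 over all probe sets). Fibroblast markers were present: 8 of 11 were above background on all TKO-Ras arrays, 9 on TKO, 11 on Rb1KO and 10 on WT arrays. Thy1, a surface marker of fibroblasts, was at background on every TKO-Ras and TKO array. In TKO-Ras over TKO cells none of the 11 was higher and 5 were lower (median difference -1.07), or 2 without TKO replicate 2 or 3 and 3 without TKO-Ras replicate 1 or 3. In TKO-Ras over WT cells 1 was higher, or 2 without WT replicate 3, and 5 were lower (median -1.29). In TKO-Ras over Rb1KO cells none was higher and 4 were lower (median -1.28). In TKO over WT cells 4 were lower and 1 higher (median -0.20), the number higher being 0 without TKO replicate 2 or 3 or WT replicate 1 or 2, 2 without TKO replicate 1 and 4 without WT replicate 3. In Rb1KO over WT cells 5 were lower (median -0.39) and none higher, or 1 without WT replicate 3. TKO over Rb1KO cells went the other way, with 2 higher (Col1a1 and Col3a1) and 1, Thy1, lower (median 0.20). Of all 18193 genes, 4.17% were lower in TKO-Ras over TKO cells, 14.3% in TKO-Ras over WT and 5.22% in TKO-Ras over Rb1KO cells. In TKO over WT cells 9.9% of all genes were lower, and in Rb1KO over WT cells 12.3%. The median difference over all genes was between 0.02 and 0.11 in these 5 comparisons. In TKO over Rb1KO cells 5.92% of all genes were higher and 3.63% lower, with a median of -0.03. The part of the fibroblast markers' shift in the members' differences was not tested.

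Pluripotent cells of the early embryo, and the embryonic stem cells derived from them, can form every tissue of the body. Their state is held by a small circuit of transcription factors in which Sox2 and Oct4 (the product of Pou5f1) bind DNA side by side, at a Sox site next to an octamer site, and activate Nanog, each other and themselves. Esrrb, Sall4 and the Krüppel-like factors Klf2, Klf4 and Klf5 bind many of the same genes. Sox2 and Klf4 are also 2 of the 4 factors used to reprogramme fibroblasts. Outside the early embryo Sox2 marks neural progenitors and several epithelia, and the Klf genes are active in many adult cell types, fibroblasts included. Rb family proteins bind E2F factors at promoters and repress transcription there.

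Promoter windows of 250 bases before the annotated start (RefSeq, GRCm38.p6) were available for 6 of the 8 members. Windows for Klf5 and Sall4 were not used here. The windows of Sox2 (chr3:34649745-34649994, plus strand) and Nanog (chr6:122707239-122707488, plus strand, the first of its 2 annotated starts) are shown because they alone among the 6 members held both an octamer (ATGCAAA or TTTGCAT) and a Sox core (ACAANG or CNTTGT), each marked in capitals.
Sox2: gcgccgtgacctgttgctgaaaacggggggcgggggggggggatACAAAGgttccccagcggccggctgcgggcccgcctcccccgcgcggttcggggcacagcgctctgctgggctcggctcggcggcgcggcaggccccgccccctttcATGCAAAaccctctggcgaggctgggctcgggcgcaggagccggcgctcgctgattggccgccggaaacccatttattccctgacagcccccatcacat
Nanog: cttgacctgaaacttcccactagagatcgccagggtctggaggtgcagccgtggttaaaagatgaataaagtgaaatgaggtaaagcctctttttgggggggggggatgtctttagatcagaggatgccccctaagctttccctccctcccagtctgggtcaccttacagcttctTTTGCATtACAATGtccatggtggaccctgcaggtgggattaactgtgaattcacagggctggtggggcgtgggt
In the Nanog window the octamer, 75 bases before the start, lay next to the Sox core at 67 bases. In the Sox2 window they lay apart, at 99 and 206 bases before the start. Both strands were searched, and the 2 motifs did not overlap. Of all 32851 promoter windows of this length, 4.12% held the octamer and 36.3% the Sox core. The E2F motif TTTNNCGC (GCGNNAAA on the other strand), found in 4.28% of all windows, was in none of the members' windows. A match is a description of the letters, not evidence that a factor binds.

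Sox2 was read by a single probe set (1416967_at). Its values were 9.67, 9.11 and 10.31 in TKO-Ras cells, 9.09, 9.18 and 8.58 in TKO cells, 4.45, 5.54 and 4.32 in Rb1KO cells, and 4.77, 4.55 and 3.07 in WT cells. All 6 arrays of TKO-Ras and TKO cells lay at least 3 units above every Rb1KO and WT array. The means were 9.70 ± 0.60, 8.95 ± 0.32, 4.77 ± 0.67 and 4.13 ± 0.93 in that order of genotypes. The ranges of TKO-Ras and TKO cells overlapped, as did those of Rb1KO and WT cells. Sox2 was at background on every WT array and on all Rb1KO arrays but replicate 2. Its level in TKO cells was at least 14.1-fold above WT cells, and in TKO-Ras cells at least 23.6-fold. The difference between TKO-Ras and TKO cells was 0.74, and the fitted difference between Rb1KO and WT cells was 0.64, or 0.11 without WT replicate 3.

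The choice of Sox2 did not use the arrays of TKO-Ras and Rb1KO cells, so Sox2 was tested between these. It was higher in TKO-Ras than in Rb1KO cells by 4.93 (SE 0.46, 95% interval 3.91 to 5.94) with an adjusted p of 5.08e-05 by limma. Since 2 of the 3 Rb1KO arrays were at background, no fold is given for this difference. TKO-Ras cells are labelled as TKO cells with a further mutation, so they share the origin of the cells on which Sox2 was chosen and are not an independent source. The test thus gives no independent support for the choice of Sox2. The call held under each of 16 alternative analyses, in which the difference ranged between 4.62 and 5.31.

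**Figure D1:**
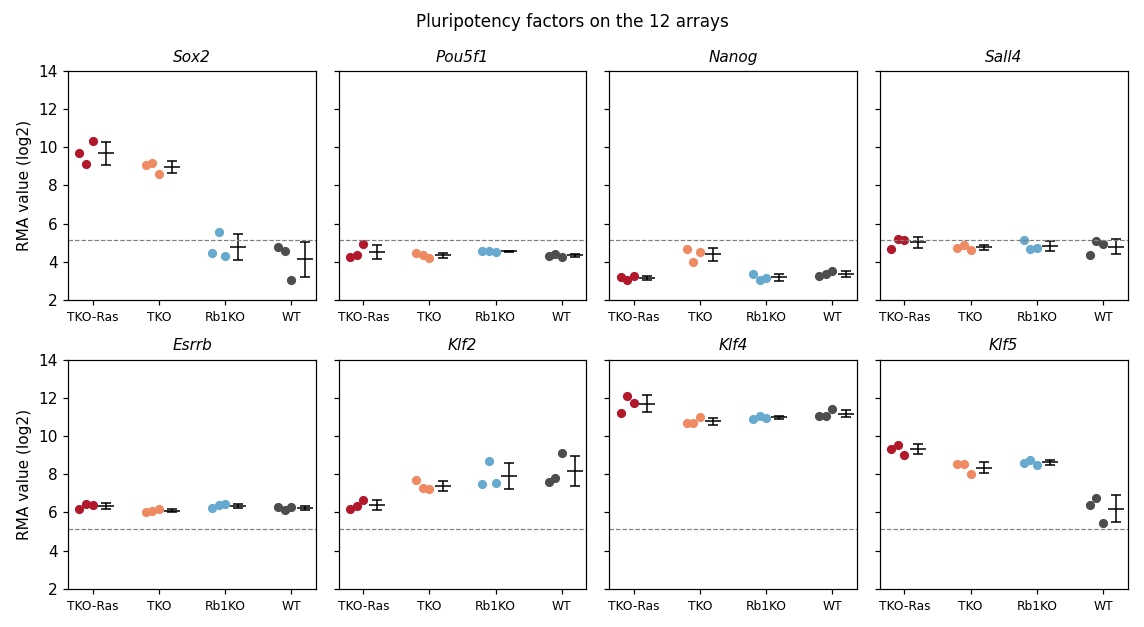
Log2 values of the 8 pluripotency factors (vertical axis) on the 3 arrays of each genotype (TKO-Ras, TKO, Rb1KO, WT), with each point an array, the bars the mean ± SD, and the dashed line the background level of 5.13. Sox2 lies at 8.58 or above on the TKO-Ras and TKO arrays and at 5.54 or below on the others, while Pou5f1 and Nanog lie under the dashed line on all 12 arrays.

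Pou5f1, Nanog and Sall4 were at or near background. Pou5f1, which encodes Oct4, was between 4.25 and 4.91 in TKO-Ras cells, 4.20 and 4.47 in TKO cells, 4.52 and 4.56 in Rb1KO cells, and 4.27 and 4.41 in WT cells. All 12 values were under the background level and no comparison was called. Sall4, a zinc-finger factor that regulates Pou5f1, exceeded the background level on 3 arrays, the highest at 5.19 in TKO-Ras cells, and its values spanned 4.35 to 5.19 with no comparison called. Its second probe set was under background on all 12 arrays.

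Nanog, a homeodomain factor needed to establish the pluripotent state, was also under background on all 12 arrays. Its values were 3.2, 3.06 and 3.24 in TKO-Ras cells, 4.67, 4.02 and 4.50 in TKO cells, 3.37, 3.02 and 3.16 in Rb1KO cells, and 3.24, 3.36 and 3.54 in WT cells. The 3 TKO arrays were the highest of the 12. The TKO mean passed the test against WT (difference 1.02, adjusted p = 0.00111) and against Rb1KO cells (1.21, adjusted p = 0.000824), and the TKO-Ras mean was below the TKO mean (-1.23, adjusted p = 0.00116). No fold is given for these differences, since both sides were at background. The octamer and Sox core of the Nanog window stood beside a transcript at background in all 4 genotypes.

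Esrrb, an orphan nuclear receptor of the network, was above background by 1 of its 3 probe sets only. That probe set gave 6.16, 6.43 and 6.39 in TKO-Ras cells, 6.0, 6.07 and 6.16 in TKO cells, 6.22, 6.37 and 6.42 in Rb1KO cells, and 6.30, 6.12 and 6.26 in WT cells. All 12 values lay between 6.0 and 6.43 and none of the 6 comparisons was called. The widest difference was between TKO and Rb1KO cells (-0.26, adjusted p = 0.187). The other 2 probe sets of Esrrb were under background on all 12 arrays, and the 3 probe sets disagree on whether the gene is detected.

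The 3 Krüppel-like factors were above background on all 12 arrays and each had its own pattern. Klf5, which promotes growth and stem-cell renewal, was higher in all 3 mutant genotypes than in WT cells. Klf4, a factor that in fibroblasts is tied to growth arrest, was higher in TKO-Ras than in TKO cells. Klf2, known for its part in quiescent endothelial and T cells, was lower in TKO-Ras than in WT cells.

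Klf5 was at 9.34, 9.54 and 9.02 in TKO-Ras cells, 8.52, 8.52 and 8.0 in TKO cells, 8.56, 8.77 and 8.51 in Rb1KO cells, and 6.39, 6.78 and 5.43 in WT cells. Every mutant array was above every WT array, and the Rb1KO and TKO ranges overlapped. The difference was 3.10 in TKO-Ras over WT cells (8.58-fold, adjusted p = 1.69e-05). In TKO over WT cells it was 2.15 (SE 0.29, 95% interval 1.51 to 2.78, 4.43-fold, adjusted p = 0.000369). In Rb1KO over WT cells, a comparison that uses the same WT arrays, it was 2.41 (5.33-fold, adjusted p = 0.000131). Without WT replicate 3, the lowest array, these differences were 2.72, 1.76 and 2.03, and each was still called. TKO and Rb1KO cells differed by -0.27 (adjusted p = 0.687). TKO-Ras arrays were all above the TKO arrays, by 0.95 on average, with a 95% interval of 0.32 to 1.59, but this was not called (adjusted p = 0.0861). Nor was TKO-Ras over Rb1KO cells (0.69, adjusted p = 0.204).

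A second Klf5 probe set (1451739_at) lay between 4.13 and 5.41, above background on 2 of 12 arrays. It was called in Rb1KO over WT cells (0.73, adjusted p = 0.00412) and in TKO-Ras over WT cells (0.79, adjusted p = 0.00223), but not in TKO over WT cells (0.26, adjusted p = 0.273). The third Klf5 probe set was at background throughout.

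Klf4 was at 11.22, 12.11 and 11.71 in TKO-Ras cells, 10.66, 10.66 and 10.98 in TKO cells, 10.91, 11.05 and 10.94 in Rb1KO cells, and 11.04, 11.07 and 11.40 in WT cells. TKO-Ras cells had the highest mean (11.68 ± 0.44) and TKO cells the lowest (10.77 ± 0.18). The difference between TKO-Ras and TKO cells was 0.92 (SE 0.19, 95% interval 0.49 to 1.34, 1.89-fold, adjusted p = 0.0188). It was no longer called without TKO-Ras replicate 3 (adjusted p = 0.0677), TKO replicate 1 (0.0631) or TKO replicate 2 (0.0792). TKO-Ras over Rb1KO cells gave 0.72 (1.64-fold, adjusted p = 0.0427), which was lost without any 1 of TKO-Ras replicates 2 and 3 and the 3 Rb1KO replicates (adjusted p 0.0832 to 0.131).

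Klf4 did not pass the test in TKO-Ras over WT cells (0.52, 95% interval 0.09 to 0.94, adjusted p = 0.0709), where the ranges overlapped. It passed without TKO-Ras replicate 1 (0.74, adjusted p = 0.00863) or WT replicate 3 (0.63, adjusted p = 0.0419). TKO over WT cells differed by -0.40 (adjusted p = 0.191) and Rb1KO over WT cells by -0.20 (adjusted p = 0.516). The second Klf4 probe set (1417395_at) gave 10.24, 10.98 and 10.42 in TKO-Ras cells and 9.45, 9.55 and 9.84 in TKO cells. By that probe set TKO-Ras cells were above TKO cells by 0.93 (adjusted p = 0.00941), above Rb1KO cells by 0.80 (adjusted p = 0.0138) and above WT cells by 0.64 (adjusted p = 0.0179), so the probe sets disagree on the call against WT cells.

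Klf2 was at 6.17, 6.34 and 6.65 in TKO-Ras cells, 7.67, 7.25 and 7.22 in TKO cells, 7.49, 8.70 and 7.54 in Rb1KO cells, and 7.61, 7.79 and 9.09 in WT cells. The 3 TKO-Ras arrays were the lowest of the 12, and the other genotypes overlapped. TKO-Ras cells were below WT cells by 1.78 units (a difference of -1.78, SE 0.39, 95% interval -2.63 to -0.92, 3.42-fold lower, adjusted p = 0.00555). This held in all 16 alternatives, and the difference was -1.31 without WT replicate 3. Against Rb1KO cells the difference was -1.52 (2.87-fold lower, adjusted p = 0.0326). It was lost without any 1 of the 3 TKO-Ras replicates and Rb1KO replicates 2 and 3 (adjusted p 0.0515 to 0.114). Against TKO cells the difference of -0.99 was not called (95% interval -1.85 to -0.13, adjusted p = 0.19). TKO over WT cells gave -0.78 (adjusted p = 0.201), TKO over Rb1KO cells -0.53 (adjusted p = 0.514) and Rb1KO over WT cells -0.26 (adjusted p = 0.695).

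**Figure D2:**
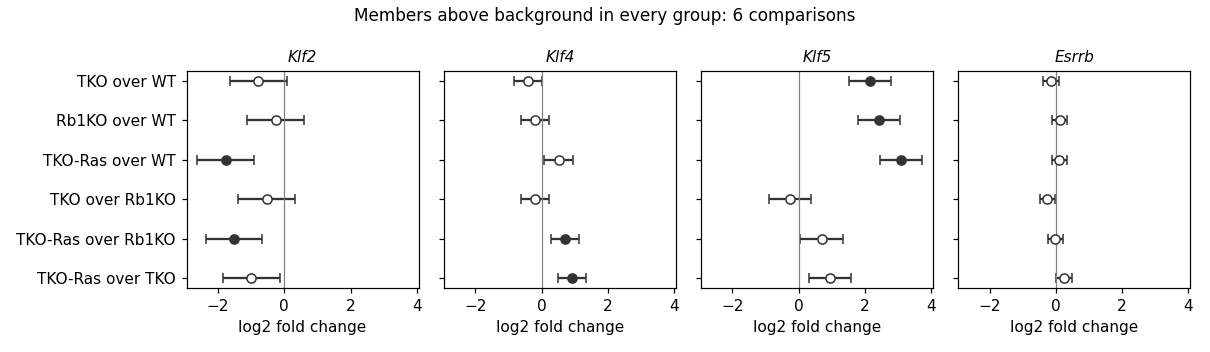
Log2 fold changes (horizontal axis) of Klf2, Klf4, Klf5 and Esrrb in the 6 comparisons between genotypes (rows), with 95% intervals from limma and filled circles where the adjusted p was under 0.05. Klf5 is filled in the 3 comparisons with WT cells (2.15, 2.41 and 3.10), Klf2 and Klf4 are filled only in comparisons of TKO-Ras cells, and Esrrb is filled in none.

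Counting the 7 members other than Sox2, TKO over WT cells had 2 called, Nanog and Klf5, of which only Klf5 was above background. Of all 18193 genes, 23.5% were called there, 13.6% higher and 9.9% lower. Rb1KO over WT cells had 1 called, Klf5, against 27.9% of all genes (15.6% higher, 12.3% lower). TKO over Rb1KO cells had 1 called, Nanog at background, against 9.55% of all genes (5.92% higher, 3.63% lower). TKO-Ras over TKO cells had 2 called, Klf4 higher and Nanog lower, against 7.36% of all genes (3.19% higher, 4.17% lower). TKO-Ras over WT cells had 2 called, Klf5 higher and Klf2 lower, against 33.7% of all genes (19.4% higher, 14.3% lower). TKO-Ras over Rb1KO cells had 2 called, Klf4 higher and Klf2 lower, against 11.3% (6.09% higher, 5.22% lower). Nothing particular to the members is read from counts over 7 genes. These shares of all genes also stand beside the counts of the other gene lists below. The TKO over WT and Rb1KO over WT comparisons share the WT arrays. The median difference of the 7 members was -0.04 in TKO over WT cells, beside 0.05 over all genes, and 0.06 in Rb1KO over WT cells, beside 0.08. It was -0.21 in TKO over Rb1KO cells, beside -0.03, and 0.24 in TKO-Ras over TKO cells, beside 0.04. In TKO-Ras over WT cells it was 0.18, beside 0.11, and in TKO-Ras over Rb1KO cells -0.01, beside 0.02. On all 3 arrays of a genotype, 5 of the 8 members were above background in TKO-Ras and in TKO cells (Sox2, Klf2, Klf4, Klf5 and Esrrb) and 4 in Rb1KO and in WT cells, the same list without Sox2.

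The wider pluripotency network, listed here as 36 genes that stem cells use, was mostly at background. Of the 35 genes measured, between 11 and 13 were above background on all 3 arrays of a genotype. Of all 18193 genes, 64.3% were in TKO-Ras, 63.7% in TKO, 64.3% in Rb1KO and 63.5% in WT cells. On all 12 arrays 21 of the 35 were at background, among them Zfp42 (Rex1), Dppa4, Tdgf1, Lin28a and Prdm14, all markers of stem cells. Another 10 were above background on all 12 arrays, namely Dnmt3b, Fgf4, Gdf3, Nodal, Nr5a2, Rif1, Tbx3, Utf1, Zfp281 and Zscan10. Their levels differed widely. Gdf3 (genotype means 5.38 to 5.53), Nodal (5.41 to 5.66) and Nr5a2 (5.42 to 5.65) lay only just over the cut-off. Their means were under the stricter cut-off of 5.82 in every genotype, so their detection is weak. Rif1 (8.85 to 10.49) and Zfp281 (8.79 to 9.36) were far brighter. In TKO over WT cells 2 of 35 rose, none fell and 33 were not called, and the median difference was 0.05, as over all genes. The 2 were Mybl2, a cell-cycle factor of the Myb family and an E2F target (1.77, adjusted p = 0.000626), and Rif1, which controls replication timing and DNA repair (0.90, adjusted p = 0.000114). Both are also active in dividing cells that are not stem cells.

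Mybl2 was at 7.60, 7.35 and 7.53 in TKO cells, against 6.35, 5.79 and 5.03 in WT cells, with no overlap. Rif1 was at 9.76, 9.69 and 9.82 in TKO cells, against 9.05, 8.79 and 8.72 in WT cells. Rb1KO cells were also above WT cells for Mybl2 (1.94, adjusted p = 0.000277) and Rif1 (1.64, adjusted p = 1.96e-06), and Rif1 was lower in TKO than in Rb1KO cells (-0.73, adjusted p = 0.00113). In Rb1KO over WT cells 3 of 35 were higher and 1 lower. The third that was higher, Trim71, was at background. The gene that was lower was Tbx3, a T-box factor of limb and stem cells (-1.17, adjusted p = 0.0126), a call lost without Rb1KO replicate 1 or 3 (adjusted p = 0.0556 and 0.055). In TKO-Ras over Rb1KO cells Tbx3 was the 1 gene that was higher (1.58, adjusted p = 0.00491) and Rif1 the 1 that was lower (-0.52, adjusted p = 0.00813), and the same genes made up the 1 higher and 1 lower call in TKO over Rb1KO cells, where Tbx3 was lost without Rb1KO replicate 1 or 3. In TKO-Ras over WT cells 4 were higher, among them Mybl2 and Rif1, and none lower. The calls of Fgf4 and Trim71 were both lost without TKO-Ras replicate 2 (adjusted p = 0.1 and 0.051) and without WT replicate 1 (0.0947 and 0.0626). Fgf4 was also lost without WT replicate 2 (0.0704). The number higher was 2 without WT replicate 1 and 7 without WT replicate 3, and 1 was lower without TKO-Ras replicate 3. In TKO-Ras over TKO cells none was higher and 1 lower, the zinc-finger factor Zfp281 (-0.57, adjusted p = 0.0311), a call lost without any 1 TKO array or without TKO-Ras replicate 1 or 2 (adjusted p 0.0604 to 0.111).

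Leukaemia inhibitory factor (Lif) acts through its receptor subunit Il6st (gp130), the kinase Jak1 and the factor Stat3 to hold mouse stem cells undifferentiated, with help from Bmp4 through its receptors and Smad1. All 15 genes of this list were above background. In TKO over WT cells 1 rose, 2 fell and 12 were not called. The number that rose was 3 without WT replicate 3, and the number that fell was 1 without TKO replicate 1 or 3, or WT replicate 1 or 2. Lif was higher (1.56, adjusted p = 0.0351), a call lost without any 1 TKO array (adjusted p 0.0621 to 0.101), and the receptor gene Bmpr2 was lower (-0.84, adjusted p = 0.000762). In TKO-Ras over TKO cells none rose and 4 fell, or 2 (Il6st and Stat3) without TKO replicate 3 or without TKO-Ras replicate 1 or 3. Il6st was at 9.34, 9.20 and 9.31 in TKO-Ras cells, against 10.27, 11.27 and 11.01 in TKO cells (-1.56, adjusted p = 0.00101). Stat3 was at 8.64, 8.29 and 8.12 in TKO-Ras cells, against 9.32, 9.71 and 9.87 in TKO cells (-1.28, adjusted p = 0.0064). For both genes the 2 genotypes did not overlap, and both were also lower in TKO-Ras than in WT cells (Il6st -2.0, adjusted p = 2.92e-05, and Stat3 -1.64, adjusted p = 0.000242).

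In Rb1KO over WT cells 1 gene of the list rose and 5 fell, with a median difference of -0.22 beside 0.08 over all genes. Without Rb1KO replicate 1 it was 3 that fell, and without WT replicate 2 or 3 it was 2 that rose. Bmp4 was at 8.67, 6.63 and 8.33 in Rb1KO cells, against 11.01, 10.73 and 8.84 in WT cells (-2.32, adjusted p = 0.0118). The groups did not overlap, but the gap between the nearest arrays was small, and the call was lost without WT replicate 1 (-1.91, adjusted p = 0.0501). Il6st was also lower in Rb1KO than in WT cells (-1.18, adjusted p = 0.00142). Bmp4 averaged 10.17 ± 0.24 in TKO cells and 10.19 ± 1.18 in WT cells.

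**Figure D3:**
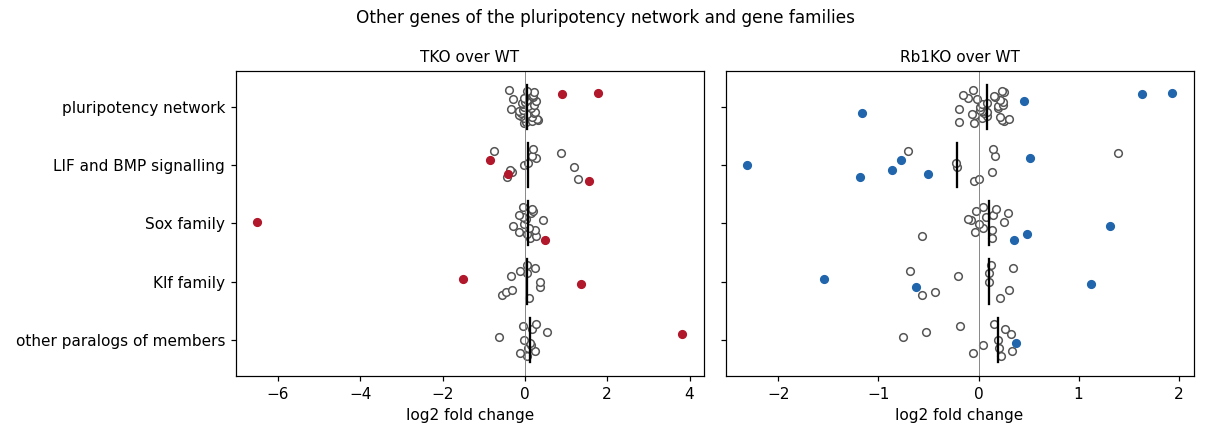
Log2 fold changes of single genes (points) in TKO over WT cells and Rb1KO over WT cells for the 5 gene lists in rows, filled where the adjusted p was under 0.05, with the vertical bar at each list's median. The horizontal axes differ in range, and the points near -6.5 (Sox11) and 3.8 (Sall1) on the TKO side are fitted differences against a genotype at background.

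Among the relatives of Sox2, Sox11 ran the other way. Sox11, a SoxC factor of neural and mesenchymal progenitors, was at 3.14, 3.37 and 3.40 in TKO-Ras cells, 3.35, 3.29 and 3.65 in TKO cells, 10.12, 10.39 and 10.05 in Rb1KO cells, and 10.31, 10.54 and 8.96 in WT cells. It was at background on all TKO-Ras and TKO arrays and high on all others. It was at least 27.9-fold lower in TKO than in WT cells (adjusted p = 3.5e-07) and at least 33.2-fold lower in TKO-Ras than in Rb1KO cells (adjusted p = 2.37e-07).

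Sall1, a relative of Sall4 from kidney and limb development, was split between genotypes as Sox2 was. Its values were 6.74, 6.80 and 6.83 in TKO-Ras cells, 6.83, 7.08 and 7.17 in TKO cells, 3.65, 3.31 and 3.60 in Rb1KO cells, and 3.22, 3.26 and 3.11 in WT cells. TKO cells exceeded WT cells at least 3.72-fold (adjusted p = 1.21e-08), and TKO-Ras cells exceeded Rb1KO cells at least 3.15-fold (adjusted p = 4.91e-08). For Sox11 and Sall1 both calls held in all 16 alternatives.

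Of the 18 other Sox genes, 1 was higher (2 without WT replicate 3) and 1 lower in TKO over WT cells. The higher one, Sox1, was at background on all TKO and WT arrays, and the lower one was Sox11. Sox4, the other SoxC gene, was between 12.16 and 13.47 on all 12 arrays and did not differ beyond the test in TKO over WT cells (0.27, adjusted p = 0.427). It was lower in TKO-Ras than in TKO cells (-0.95, adjusted p = 0.022), a call lost without any 1 TKO array or without TKO-Ras replicate 1 or 3 (adjusted p 0.0549 to 0.0824). Sox9, a factor of cartilage and several epithelia, was at 8.95, 9.16 and 9.12 in Rb1KO cells, against 7.58, 7.15 and 8.53 in WT cells (1.32, adjusted p = 0.0211). That call was lost without Rb1KO replicate 2 or 3, or WT replicate 1 or 2 (adjusted p 0.0621 to 0.0786). Sox21, a partner and antagonist of Sox2 in neural progenitors, was higher in TKO-Ras than in WT cells by 0.52 (adjusted p = 0.0225), a call lost without TKO-Ras replicate 2 or 3, or WT replicate 1 or 3 (adjusted p 0.059 to 0.0678).

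**Figure D4:**
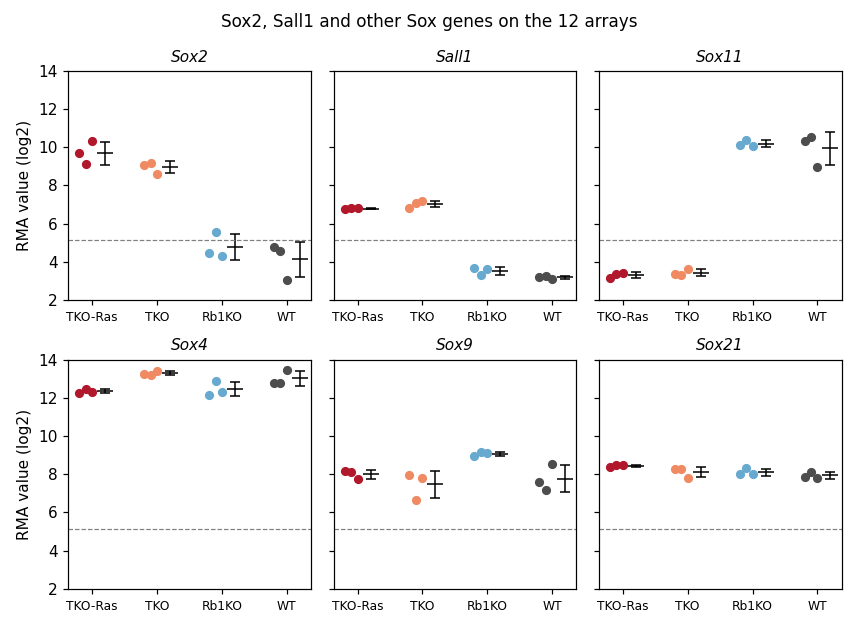
Log2 values of Sox2, Sall1 and 4 other Sox genes (vertical axis) on the 3 arrays of TKO-Ras, TKO, Rb1KO and WT cells, with points for arrays, bars for the mean ± SD and the background level of 5.13 dashed. Sall1 is above the line only in TKO-Ras and TKO cells, Sox11 only in Rb1KO and WT cells, and Sox4, Sox9 and Sox21 are above it on every array.

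Of the 13 other Klf genes measured, 1 was higher and 1 lower (2 without WT replicate 2 or 3) in TKO over WT cells, with a median difference of 0.04. Klf10, a gene induced early by transforming growth factor beta, was at 10.12, 9.71 and 9.50 in TKO cells, against 8.62, 8.39 and 8.23 in WT cells (1.37, adjusted p = 0.00153). Klf12, a repressor, was at 5.24, 5.21 and 5.01 in TKO cells, near background, against 6.48, 6.75 and 6.70 in WT cells (-1.49, adjusted p = 7.22e-06). Both were also called in Rb1KO over WT cells (Klf10 1.12, adjusted p = 0.00425, and Klf12 -1.55, adjusted p = 4.99e-06), and in TKO-Ras over WT cells 1 Klf gene was higher and 5 lower. The number lower there was 3 without TKO-Ras replicate 2, where 2 were higher, and 2 without TKO-Ras replicate 3. None of the 13 was called in TKO-Ras over TKO cells by limma, or 1 (Klf15, lower) without TKO replicate 1.

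The genes beside Sox2 on chromosome 3 were read as well, 7 of them measured. Sox2ot, the long noncoding RNA gene that overlaps Sox2, was between 2.52 and 3.27, under background on all 12 arrays, although its difference in TKO over WT cells passed the test (0.50, adjusted p = 0.026). Its nearest measured protein-coding neighbours, Atp11b on one side and Fxr1 on the other, were between 8.49 and 8.90 and between 10.79 and 11.39, and neither was called in TKO over WT or Rb1KO over WT cells. Dcun1d1, next after Atp11b, was not called either. Further out, Ttc14 was lower in TKO than in WT cells (-0.97, adjusted p = 0.000169), as was Mccc1 (-0.97, adjusted p = 0.000795). Both were also lower in Rb1KO than in WT cells (Ttc14 -0.51, adjusted p = 0.00863, and Mccc1 -0.58, adjusted p = 0.0144). Ccdc39 was at background in TKO cells and at 5.60, 4.28 and 7.20 in WT cells. Its call in TKO over WT cells was kept in 10 of 15 alternatives, among which the difference ranged between -2.90 and 0.34, so no direction is given.

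The 5 genes whose values followed those of Sox2 most closely over the 12 arrays were Hoxd8 (Pearson r = 0.99), Prl6a1 (0.99), Tmem74 (0.98), Hoxa13 (0.98) and Wnt10b (0.98), among 12629 genes above background on at least 3 arrays. These correlations describe 12 arrays in 4 groups that share the split between genotypes, and no p is given. Prl6a1 and Hoxa13 were at background on every Rb1KO and WT array and passed the filter only through TKO-Ras and TKO arrays. Prl6a1 was near background there too, between 5.06 (TKO replicate 2, under the level) and 5.45. Hoxd8 was at 9.37, 9.10 and 9.37 in TKO-Ras cells, 8.77, 8.98 and 8.81 in TKO cells, 4.93, 5.71 and 5.22 in Rb1KO cells, and 5.18, 5.42 and 4.59 in WT cells. Like Sox2, Hoxd8 was highest on Rb1KO replicate 2 and lowest on WT replicate 3 within those genotypes. No support is read from this, since Hoxd8 was picked for its likeness to Sox2 over these same arrays. Sox2 was also at background on every Rb1KO and WT array except Rb1KO replicate 2. Of the members, Klf5 had r = 0.69 with Sox2 and Klf2 had r = -0.75.

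Marker lists of other cell types in which Sox2 or its partners are found were read on the same arrays, each also summed as signal and given as log2 of the sum. All 8 measured germ-cell markers were at background on every array. Of 13 neural and glial markers 7 were above background on all TKO-Ras arrays, 7 on TKO, 8 on Rb1KO and 8 on WT arrays. Their sum was 9.92 to 10.14 in TKO-Ras cells, 9.64 to 9.89 in TKO cells, 10.07 to 10.22 in Rb1KO cells and 11.19 to 11.28 in WT cells. Map2, a neuronal microtubule protein, was at background in TKO-Ras and TKO cells and between 10.18 and 10.72 in WT cells, where it made up much of the sum. Over the 13 markers 1 was higher and 2 lower in TKO over WT cells, with a median difference of 0.10 beside 0.05 over all genes. Of 10 epithelial markers 5 were above background on all arrays of TKO-Ras, TKO and Rb1KO cells and 4 in WT cells, with sums of 10.59 to 11.20 in TKO-Ras cells, 9.27 to 9.80 in TKO cells, 9.15 to 9.43 in Rb1KO cells and 8.98 to 9.78 in WT cells. Epithelial Krt19 was at 10.20, 10.93 and 10.30 in TKO-Ras cells, above every other array, while Cdh1 was at background throughout. Krt19 was the brightest of the 10 in TKO-Ras cells and so weighed most in their sum. It was not called in TKO-Ras over TKO cells (2.07, adjusted p = 0.158) or over Rb1KO cells (2.56, adjusted p = 0.0631). In TKO-Ras over WT cells 2 of the 10 were higher and none lower, both above background on at least 1 array compared. In TKO over WT cells 2 were also higher and none lower, but only 1 of them was above background. In TKO-Ras over TKO cells none of the 10 was higher and 1, Cdh1, was lower. The median difference there was 0.17, beside 0.04 over all genes.

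The sum of the 8 leukocyte markers was 9.10 to 9.35 in TKO-Ras cells and 8.93 to 9.02 in TKO cells, against 8.53 to 8.66 in Rb1KO cells and 8.42 to 8.51 in WT cells. On all 3 arrays, 5 of the 8 were above background in TKO-Ras cells, 4 in TKO, 3 in Rb1KO and 4 in WT cells. Ptprc (CD45), which defines leukocytes, was at background on all 12 arrays. Cd14, a monocyte receptor, was higher in TKO than in WT cells (1.25, adjusted p = 0.000465). It had the highest mean of the 8 in TKO-Ras (8.37), TKO (7.80) and Rb1KO cells (7.04), so it weighed most in their sums. In TKO over WT cells 3 of the 8 were higher, none was lower and 5 were not called. In TKO-Ras over WT cells 1 was higher and none lower, and in Rb1KO over WT cells none was higher and 1 lower. In TKO over Rb1KO cells 2 of the 8 were higher, none was lower and 6 were not called. The 2 were Cd14 (0.76, adjusted p = 0.0217) and Cd68 (0.97, adjusted p = 0.00928). Of the 8 extraembryonic markers, 2 were above background on all arrays of TKO-Ras and of TKO cells and 1 in Rb1KO and in WT cells. Gata6 was at 8.82 ± 0.04 in TKO cells, 5.05 ± 0.33 in Rb1KO cells (1 of 3 arrays above background) and 7.36 ± 1.68 in WT cells. It was the 1 marker of the 8 called in TKO over Rb1KO cells (3.77, adjusted p = 0.0025). In TKO over WT cells 1 was higher and none lower, and in Rb1KO over WT cells 1 was higher and 1 lower. The sum of the 8 was 8.97 to 9.13 in TKO-Ras cells and 9.33 to 9.41 in TKO cells. It was 7.88 to 7.90 in Rb1KO cells and 7.71 to 9.07 in WT cells. The sum of 7 endothelial markers was between 7.54 and 7.85 on all 12 arrays. For 6 neural-crest and Schwann cell markers it was 8.82 to 9.06 in TKO-Ras cells and 8.71 to 8.93 in TKO cells. It was 8.84 to 9.0 in Rb1KO cells and 8.08 to 9.92 in WT cells. In TKO over WT cells 2 of these 6 were higher and 1 lower, and in Rb1KO over WT cells 2 were higher and none lower. In TKO-Ras over TKO cells 1 was higher, Erbb3 (1.09, adjusted p = 0.0137), and none lower. The part of other cell types in the level of Sox2 was not tested.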

How the data were processed

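RNA (100 ng per array) of 12 MEF samples was hybridised to Affymetrix MOE430 2.0 arrays. The deposited table holds log2 values which the authors made by robust multiarray averaging (RMA) in Partek Genomics Suite 6.5 (per the labels and methods). RMA corrects background, sets all arrays to 1 distribution and summarises probes into probe sets, which compresses differences of dim transcripts. Array medians were 5.34 to 5.42, and the number of arrays limits precision. Array values lay between 2.18 and 14.92.

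Of 45101 probe sets, 64 controls were left out. The platform annotation gave 34945 probe sets with 1 symbol, 932 with several and 9160 with none. Only those with 1 symbol were named. All 4 genotypes entered 1 fit (R 4.3.3, limma 3.58.1, functions lmFit and eBayes, 2-sided, 8 residual degrees of freedom), without a block, with Benjamini-Hochberg adjustment over 45037 probe sets. The study's methods used contrasts in a 1-way analysis of variance. The test was checked on simulated data. The members and all gene lists were chosen with earlier results of these data known. From the list of Sox2's neighbours, 3 genes were removed after the RefSeq gene order placed them elsewhere. Besides the members and the deleted genes, named genes are up to 4 called genes per list and comparison with the largest difference, and the genes best correlated with Sox2. Dppa4, Tdgf1 and other genes named as being at background, Hoxd8 and single markers such as Cd14 were picked as examples after their values were seen.

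Deviations of same-numbered replicates of different genotypes had correlations of -0.21 to 0.31 over 18 pairs, 8 of them over 0.1. This does not exclude that some of them shared a batch. The labels do not say that the numbers pair arrays, so they were not taken as pairs, and a block by number was run as an alternative. Alternatives were an unmoderated variance, other variance settings, array weights, other scaling between arrays, a filter on dim probe sets, other probe sets of a gene, fewer groups in the fit, a replicate block, and leaving out each array. Counting the called genes of each list without each array was added after seeing the data. Figures were drawn with matplotlib 3.10.9.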

Additional observations from a re-analysis of the deposited data

How the results depend on the processing

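Each comparison was repeated under 16 alternatives. Sox2 in TKO-Ras over Rb1KO cells stayed called in all of them (adjusted p 1.15e-06 to 0.00186), as did Klf5 in Rb1KO over WT and TKO-Ras over WT cells and Klf2 in TKO-Ras over WT cells. For Sox2 this gives no independent support, since TKO-Ras cells share the origin of the TKO cells on which it was chosen. The number of the 7 other members called moved as follows. In TKO over WT cells it was 1 in place of 2 when probe sets not above background on 3 or more arrays were left out, which takes Nanog out of the test, and 1 with only probe sets without a suffix, which reads Klf5 from its dim probe set (0.26, adjusted p = 0.288). In TKO over Rb1KO cells it was 0 in place of 1 with the same background filter. In TKO-Ras over TKO cells it was 1 in place of 2 without moderation of the variance and 1 with the background filter. It ranged from 1 to 2 when single arrays were left out, and was 1 without TKO-Ras replicate 3, TKO replicate 1 or TKO replicate 2. In TKO-Ras over Rb1KO cells it was 0 in place of 2 without moderation of the variance and ranged from 0 to 1 when single arrays were left out (1 without TKO-Ras replicate 1 or Rb1KO replicate 1, and 0 without any other array). The cause was not tested otherwise. It also moved upwards. In TKO-Ras over TKO cells it was 3 with array weights, with the replicate block, with only the groups compared and with the mean of a gene's probe sets. In TKO-Ras over WT cells it was 3 with array weights, with the mean of probe sets, and without TKO-Ras replicate 1 or WT replicate 3. In TKO-Ras over Rb1KO cells it was 3 with array weights, Klf5 being added (adjusted p = 0.0497). Klf4 stayed called in 11 of 16 alternatives in TKO-Ras over TKO cells and in 9 in TKO-Ras over Rb1KO cells, and Klf2 in 10 in TKO-Ras over Rb1KO cells. With only the 2 genotypes compared in the fit, Klf2 (adjusted p = 0.0143) and Klf5 (adjusted p = 0.0251) were called in TKO-Ras over TKO cells and Klf4 was not (adjusted p = 0.051).

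Some differences that were never called changed sign. Klf2 in Rb1KO over WT cells was 0.015 with array weights and ranged from -0.65 (without Rb1KO replicate 2) to 0.21 (without WT replicate 3) when single arrays were left out. Esrrb in TKO over WT cells was 0.0002 as the mean of its probe sets and 0.13 from probe sets without a suffix, and in TKO-Ras over TKO cells -0.036 from the same probe sets. Esrrb in TKO-Ras over Rb1KO cells ranged from -0.075 to 0.069 when single arrays were left out, and was above 0 without TKO-Ras replicate 1 (0.069), Rb1KO replicate 2 (0.003) or Rb1KO replicate 3 (0.03). With the replicate number as a block, 3 members were called in TKO-Ras over TKO cells, Klf5 being added (0.95, adjusted p = 0.019), and the block changed no other member's call. Of 18 pairs, 7 correlated best with their own number. With background set at the median of the olfactory receptor probe sets (3.84), 8 members in TKO, 7 in TKO-Ras, 7 in Rb1KO and 6 in WT cells were above it on all 3 arrays. At that level Nanog was above background on all 3 TKO arrays and on none of the others, and Sox2 on all Rb1KO arrays. At the 99th percentile (5.82) it was 3 members in WT cells, since Klf5 was under that level on WT replicate 3 (5.43), and the other genotypes kept their number.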
